A study of Mus musculus with 12 samples.

Results

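The genes described here are 40 genes of the cell division cycle, measured in whole liver of mice aged 2 weeks. They comprise Ccnd1 for entry into the cycle from G1, 14 genes of S phase and 25 genes of G2 and mitosis. Each gene was read from a transcript cluster annotated to it alone, and where a gene had several such clusters the cluster of highest mean over the 12 arrays was used. A cluster was found for 39 of the 40 genes among 19938 genes of the whole array. The expression of Ccnb1 was not analysed here. All 39 passed the filter on low values, as did 13977 genes in all.

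The 12 Affymetrix arrays fell into 4 genotypes of 3 arrays each, lettered A, B and C. Stat3Fl/Fl mice carried floxed Stat3 alleles, Stat3Δhc mice carried the deletion that the labels write as Δhc, and the same 2 Stat3 genotypes were studied on a homozygous Mdr2 knockout (Stat3Fl/FlMdr2-/- and Stat3Δhc Mdr2-/-). All animals were the same age, and the labels name no agent. Mdr2 is the protein of Abcb4, which carries phospholipid into bile, and its loss is a mouse model of sclerosing cholangitis. The labels name neither the Cre line that deleted Stat3, nor the cells in which it acted, nor whether each array is a separate animal, so the p-values measure the spread between these arrays, which may be technical. The precision is limited by 3 arrays per genotype.

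In a dividing cell, mitogen signals raise cyclin D1, the product of Ccnd1, which with its kinase partners relieves the repression of E2F target genes. E2F factors then drive the genes that license replication origins and make DNA. The MuvB and FOXM1 complexes drive the later genes of G2 and mitosis through CHR elements, in promoters that often hold CCAAT boxes too. The liver of a young mouse is still growing, and its dividing cells include hepatocytes as well as blood, endothelial and other cells. In a whole-tissue sample, fewer cells of a type and less RNA per cell cannot be told apart.

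The labels were checked on the targeted genes. Stat3 ranged from 7.69 to 8.12 (log2) among the 6 arrays labelled Stat3Δhc and was 9.19 to 9.54 among the 6 labelled floxed. Abcb4 was 8.87 to 9.36 in the Mdr2-/- arrays and higher, up to 10.28, in every other array. In the source name field the Mdr2-/- genotypes are exchanged against the titles, and the Stat3 signal followed the titles, which were used. Hepatocyte markers were at a mean of 12.19 to 12.62 in every array, as a liver label requires. Xist was high and Y-linked transcripts low in the 3 Stat3Fl/FlMdr2-/- arrays and in array A of Stat3Δhc Mdr2-/-, with the opposite pattern in the other 8 arrays. The Stat3Δhc Mdr2-/- arrays therefore did not all come from a single animal, and for the other genotypes this is not known. Skeletal muscle markers (17 genes) averaged 8.58 to 9.25 in arrays with intact Mdr2 and 5.45 to 5.85 in Mdr2-/- arrays. Exocrine pancreas markers (14 genes) averaged 5.73 to 9.71 and 5.46 to 5.81 respectively.

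As a group the S phase genes were highest in Stat3Fl/Fl liver and lowest in Stat3Δhc Mdr2-/- liver. Their mean log2 signal was 7.77, 7.84 and 8.12 in arrays A, B and C of Stat3Fl/Fl liver, and 7.40, 7.12 and 7.47 in Stat3Δhc liver. It was 7.37, 7.75 and 7.61 in Stat3Fl/FlMdr2-/- liver and 7.03, 7.25 and 6.93 in Stat3Δhc Mdr2-/- liver. Within each pair of Stat3 genotypes the arrays did not overlap, and every deleted array lay below every floxed array. The group means were 7.91 ± 0.19, 7.33 ± 0.18, 7.57 ± 0.19 and 7.07 ± 0.16 in the same order (SD, n = 3 each).

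For the 24 measured genes of G2 and mitosis the mean was 7.29, 7.6 and 7.70 in Stat3Fl/Fl liver and 7.05, 6.56 and 7.05 in Stat3Δhc liver. It was 7.06, 7.50 and 7.39 in Stat3Fl/FlMdr2-/- liver and 6.80, 7.15 and 6.72 in Stat3Δhc Mdr2-/- liver. These groups were separate without the Mdr2 knockout but overlapped on it, where array B of the deleted genotype stood above array A of the floxed one. The group means were 7.53 ± 0.21, 6.89 ± 0.28, 7.32 ± 0.23 and 6.89 ± 0.23 (SD, n = 3 each). The 2 Stat3Δhc groups thus had the same mitotic mean with and without the Mdr2 knockout, while the S phase mean was lower with it. That equality rested on array B of each group, the lowest in Stat3Δhc liver at 6.56 and the highest in Stat3Δhc Mdr2-/- liver at 7.15.

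**Figure D1:**
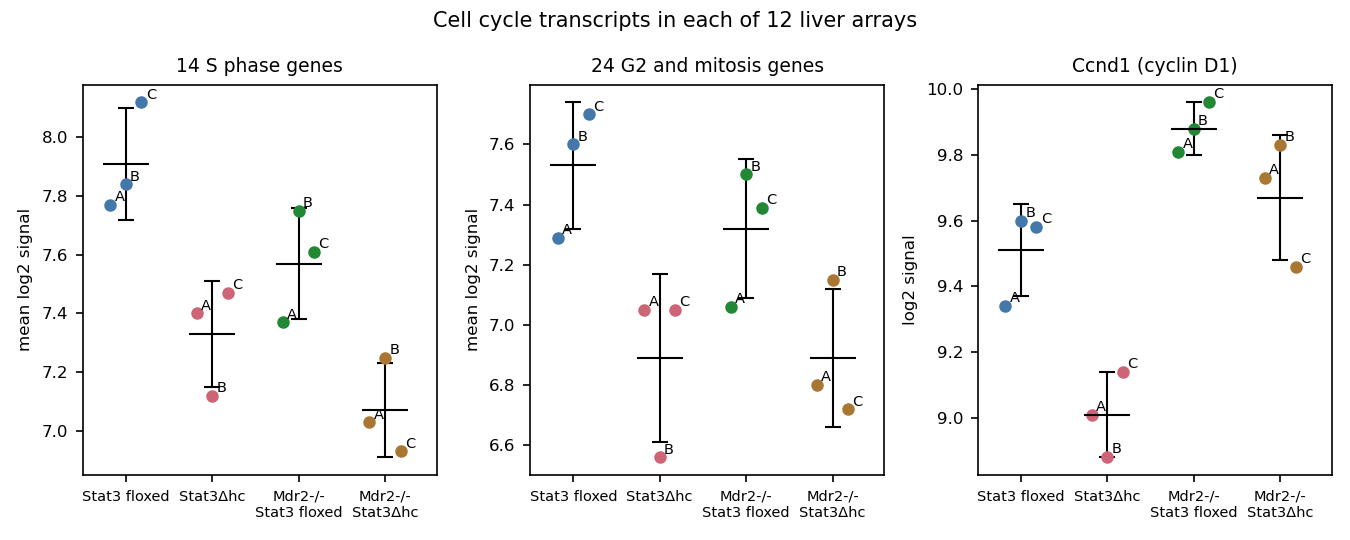
Mean log2 signal of the 14 S phase genes (left) and the 24 G2 and mitosis genes (middle), and the log2 signal of Ccnd1 (right), in each array of the 4 genotypes. Points are arrays A, B and C, horizontal bars are genotype means and vertical bars are ± 1 SD (n = 3). The S phase and mitosis means are highest in Stat3Fl/Fl liver at 7.91 and 7.53, while Ccnd1 is highest in Stat3Fl/FlMdr2-/- liver at 9.88.

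Gene by gene the highest genotype was nearly always the same, while the lowest varied. Stat3Fl/Fl liver had the highest genotype mean for 38 of the 39 genes, and Ccnd1 was the exception, with its highest mean in Stat3Fl/FlMdr2-/- liver. The lowest mean was in Stat3Δhc liver for 19 genes and in Stat3Δhc Mdr2-/- liver for 20. The genes also moved together between arrays of a genotype. Array A was the lowest of the Stat3Fl/Fl arrays for 37 of 39 genes, array B the lowest of the Stat3Δhc arrays for 38, and array A the lowest of the Stat3Fl/FlMdr2-/- arrays for 35. Array B was the highest of the Stat3Δhc Mdr2-/- arrays for 34. The median SD within a genotype was 0.25 for these genes against 0.14 for all genes tested, and their mean varied between arrays of a genotype with an SD of 0.21. The 39 genes are therefore not 39 separate measurements of a genotype.

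**Figure D2:**
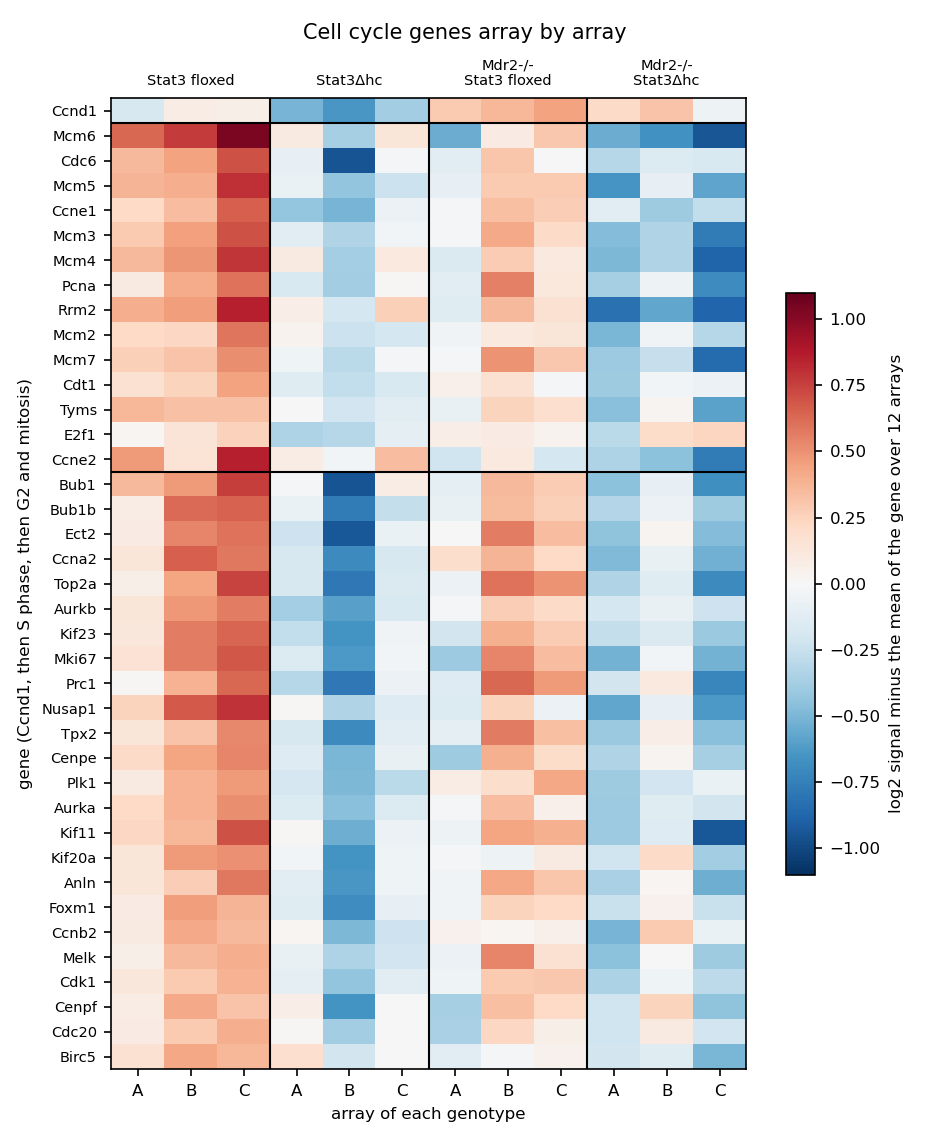
Log2 signal of each of the 39 genes in each array, minus the mean of that gene over the 12 arrays, with genes in rows and arrays in columns. Red is above and blue below the gene's own mean, black lines part the genotypes and the gene groups, and genes are ordered within a group by their change with Stat3 deletion. The 3 Stat3Fl/Fl arrays are above the mean for nearly every gene, array B of Stat3Δhc liver is the lowest of its genotype for 38 of 39 genes, and Ccnd1 is the gene with its highest mean in the Stat3Fl/FlMdr2-/- arrays.

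The comparison of Stat3Δhc with Stat3Fl/Fl liver asks what loss of Stat3 does without cholestatic disease. All 39 genes had a negative log2 change, with a median of -0.63 and a range from -0.86 to -0.33, whereas 51.5% of all genes tested were negative and their median was -0.01. By limma with Benjamini-Hochberg adjustment over all genes, 14 of 39 genes (35.9%) fell and 0 rose, where 1.07% of all genes tested fell, 1.51% rose and 2.58% did either. They were Ccnd1, 6 of the 14 S phase genes (median -0.53) and 7 of the 24 measured G2 and mitosis genes (median -0.64). The arrays of the 2 genotypes did not overlap, with Stat3Δhc below, for 37 genes, against 10.8% of all genes.

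Ccnd1, whose product starts the cycle, had log2 signals of 9.34, 9.60 and 9.58 in the Stat3Fl/Fl arrays and 9.01, 8.88 and 9.14 in the Stat3Δhc arrays. All deleted arrays lay below all floxed arrays, and the gene fell 1.41-fold (log2 change -0.50, SE 0.11, adjusted p = 0.0376). Ccne1, for cyclin E1 that activates CDK2 at the start of S phase, was 7.50, 7.62 and 7.94 against 6.86, 6.77 and 7.22. Its groups were also separate, and it fell 1.67-fold (-0.74, SE 0.14, adjusted p = 0.0204). Its paralog Ccne2 was 6.66, 6.34 and 7.05 against 6.27, 6.16 and 6.53, overlapping between the genotypes, and did not pass the test (-0.37, adjusted p = 0.317). E2f1, the activator of S phase genes, was not called either (-0.39, adjusted p = 0.126), although its floxed arrays at 6.49 to 6.72 all lay above its deleted arrays at 6.13 to 6.36.

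Origin licensing places the MCM helicase on DNA with the help of CDC6 and CDT1. Cdc6 was 6.63, 6.72 and 6.98 in Stat3Fl/Fl liver and 6.19, 5.33 and 6.26 in Stat3Δhc liver. The deleted arrays were all lower, array B by far the most, and the gene fell 1.81-fold (-0.85, SE 0.2, adjusted p = 0.0467). Cdt1 was 6.98, 7.06 and 7.26 against 6.68, 6.54 and 6.65, without overlap, and fell 1.39-fold (-0.47, SE 0.11, adjusted p = 0.0416).

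Among the MCM helicase subunits, Mcm6 had the largest change, with 9.36, 9.50 and 9.77 in Stat3Fl/Fl liver and 8.83, 8.37 and 8.87 in Stat3Δhc liver. That was a 1.81-fold fall with no overlap (-0.86, 95% confidence interval -1.29 to -0.42, adjusted p = 0.0444). Mcm5 was 7.97, 8.0 and 8.40 against 7.53, 7.17 and 7.36, and Mcm3 was 7.78, 7.94 and 8.19 against 7.37, 7.16 and 7.46. Both were separate between the genotypes and fell, Mcm5 1.70-fold (-0.77, adjusted p = 0.0327) and Mcm3 1.56-fold (-0.64, adjusted p = 0.0376). Mcm2 (-0.48), Mcm4 (-0.61) and Mcm7 (-0.48) had no overlap and missed the threshold, with adjusted p from 0.0807 to 0.137. The enzymes and factors of DNA synthesis were not called: Rrm2, the subunit of ribonucleotide reductase that varies with the cycle, had a change of -0.53 (adjusted p = 0.0979), thymidylate synthase Tyms -0.45, and the polymerase clamp Pcna -0.54. Pcna is uncertain, since 2 clusters name it and agree within 0.04 in every array, so the signal of a near-identical copy cannot be told apart. Top2a, of the G2 and mitosis genes, also has a second cluster, at 2.14 to 2.95, and its higher cluster was used.

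The sequences before the start sites of Mcm6 and Mcm5 are shown because these subunits had the largest changes of the helicase. They are the 250 bases before the start in RefSeq (GRCm38.p6), 5′ to 3′ on the strand of the gene, with E2F core letters (TTGGCGC or its reverse complement) and CCAAT boxes (CCAAT or ATTGG) in capitals. Mcm6 lies on the minus strand at chr1:128359706-128359955 and Mcm5 on the plus strand at chr8:75109259-75109508.
Mcm6: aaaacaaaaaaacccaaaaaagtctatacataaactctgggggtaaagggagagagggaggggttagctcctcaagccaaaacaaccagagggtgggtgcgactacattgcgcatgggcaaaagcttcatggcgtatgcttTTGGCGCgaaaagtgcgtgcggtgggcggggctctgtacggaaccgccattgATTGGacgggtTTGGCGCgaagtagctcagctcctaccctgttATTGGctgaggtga
Mcm5: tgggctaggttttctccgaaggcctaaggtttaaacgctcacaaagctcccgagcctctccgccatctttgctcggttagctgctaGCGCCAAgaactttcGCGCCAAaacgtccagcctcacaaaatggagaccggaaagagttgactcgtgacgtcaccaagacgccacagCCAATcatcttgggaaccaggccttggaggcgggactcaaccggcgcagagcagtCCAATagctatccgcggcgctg
Each of these stretches holds a pair of E2F cores and a pair of CCAAT boxes. The stretch of Mcm5 also holds a STAT core (TTCNNNGAA) beginning at position -239, which is left in lower case.

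Of the S phase genes, 12 had a RefSeq window of 250 bases before and 50 after the start, searched on both strands. An E2F core, TTCCCGC or TTGGCGC, stood in the windows of 6 of these 12, against 7.79% of the 27025 genes with a window. These 6 were Cdc6, Cdt1, Mcm3, Mcm5, Mcm6 and Mcm7. The CCAAT letters stood in 7 of 12 (58.3%, against 41.1% of all genes). The STAT core, TTCNNNGAA, stood in 1 of 32 member windows (3.12%), that of Mcm5, against 9.55% of all genes. A match only says that the letters are there, and these are descriptions of the reference genome.

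In G2 and mitosis Ccna2 and the kinase genes Aurkb, Aurka and Plk1 were among the genes that fell. Ccna2, for cyclin A2 that works in S phase and G2, was 8.23, 8.76 and 8.68 in Stat3Fl/Fl liver and 7.92, 7.40 and 7.92 in Stat3Δhc liver. It fell 1.76-fold with no overlap (-0.81, SE 0.17, adjusted p = 0.0273). Aurkb, the kinase of the chromosomal passenger complex, was 7.66, 8.01 and 8.09 against 7.16, 6.93 and 7.36. Its groups were separate, and its 1.71-fold fall had the lowest adjusted p of the 39 genes (-0.77, SE 0.13, adjusted p = 0.0104). Aurka, the spindle pole kinase, was 7.71, 7.87 and 8.0 against 7.34, 7.03 and 7.34, and Plk1, a kinase of mitotic entry and spindle assembly, was 7.48, 7.77 and 7.85 against 7.20, 6.89 and 7.09. Neither overlapped, and they fell 1.54-fold (-0.63, adjusted p = 0.0208) and 1.56-fold (-0.64, adjusted p = 0.0225).

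Bub1b, for the spindle checkpoint protein BUBR1, was 7.0, 7.54 and 7.57 in Stat3Fl/Fl liver and 6.85, 6.15 and 6.66 in Stat3Δhc liver. The highest deleted array stood just under the lowest floxed array, and the gene fell 1.76-fold (-0.82, SE 0.19, adjusted p = 0.0432). Nusap1, which bundles spindle microtubules, was 6.2, 6.63 and 6.75 against 5.97, 5.63 and 5.82 and fell 1.65-fold (-0.72, adjusted p = 0.0463). Kif23, a motor of the cytokinetic midzone, was 6.94, 7.38 and 7.46 against 6.55, 6.16 and 6.78 and fell 1.70-fold (-0.77, adjusted p = 0.0495). Both had separate groups.

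The other 17 measured genes of G2 and mitosis were not called. Cdk1, the mitotic kinase, had a change of -0.48 (adjusted p = 0.0648) and its partner Ccnb2 one of -0.53 (adjusted p = 0.139). The proliferation antigen gene Mki67, at 8.40, 8.80 and 8.92 against 8.09, 7.61 and 8.21, had a change of -0.74 (95% confidence interval -1.25 to -0.22, adjusted p = 0.124), and the topoisomerase gene Top2a one of -0.79 (adjusted p = 0.0856). The checkpoint kinase gene Bub1 (-0.83) and the cytokinesis gene Ect2 (-0.82) had values as large as those of the genes that passed, with standard errors of 0.24 and 0.23. Foxm1, the mitotic transcription factor, was at -0.60 (adjusted p = 0.0648). The smallest values were those of Birc5 (-0.33), of the passenger complex, and Cdc20 (-0.38), the activator of the anaphase-promoting complex.

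**Figure D3:**
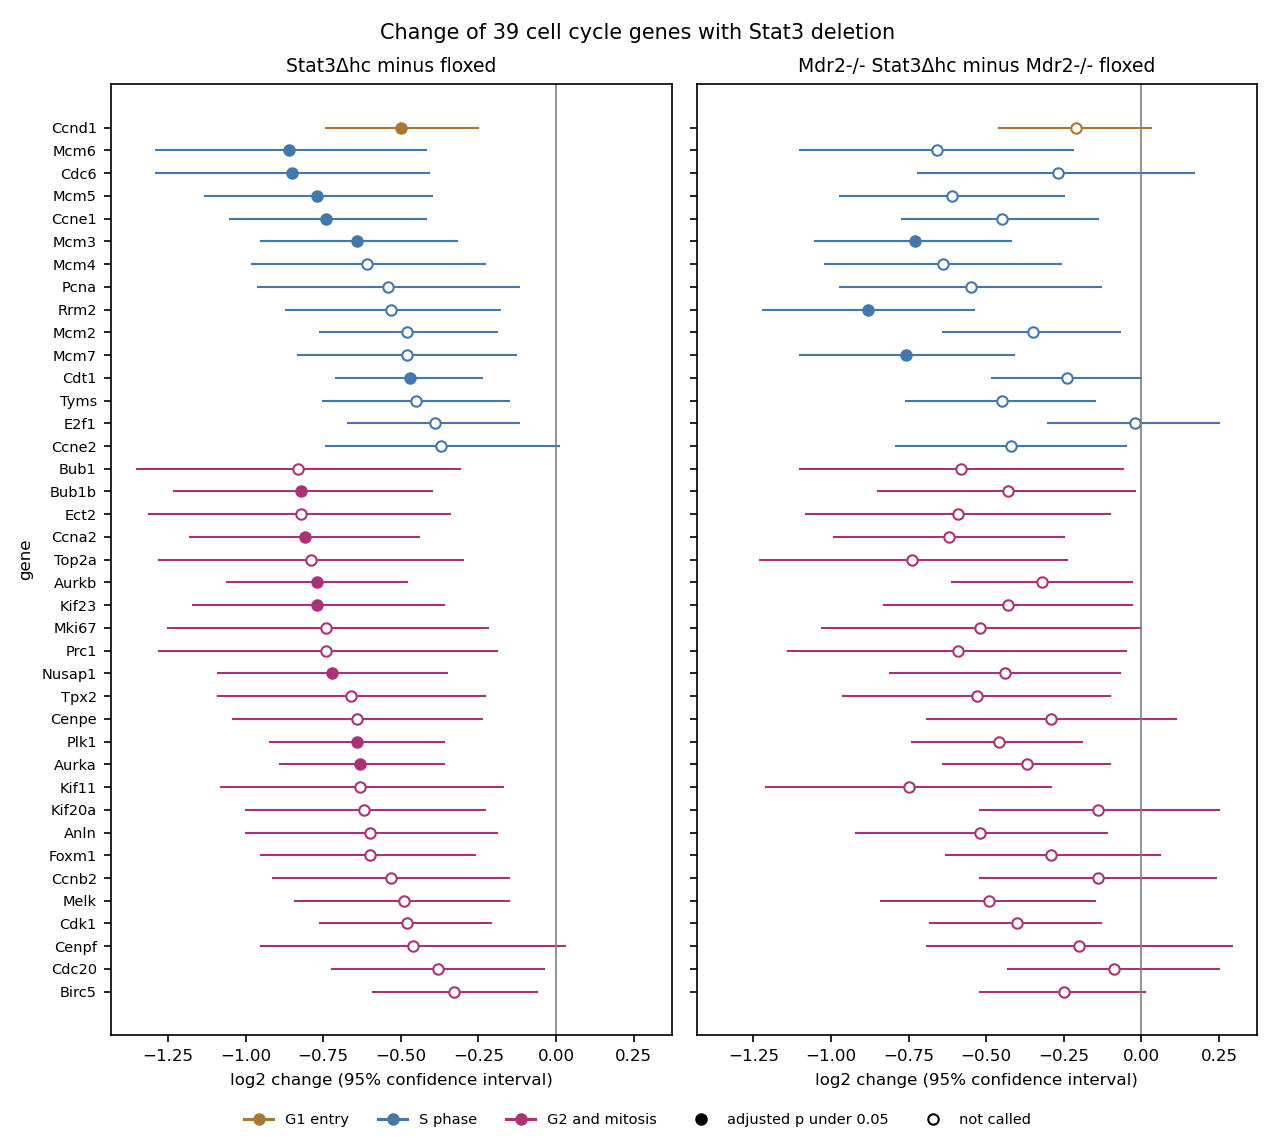
Log2 change of each of the 39 genes with Stat3 deletion, without the Mdr2 knockout (left) and on it (right). Points are estimates from limma, lines are 95% confidence intervals, filled points passed an adjusted p of 0.05, and colours give the gene group. All 39 points lie below 0 in both panels, with 14 filled at the left and 3 at the right.

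The 250 bases before the starts of Cdk1, Ccnb2 and Plk1 are shown as the mitotic kinase, its cyclin partner and a gene that fell. CCAAT boxes (CCAAT or ATTGG), CHR cores (TTTGAA or its reverse complement) and E2F cores are in capitals, in the same RefSeq build and orientation. Cdk1 lies on the minus strand at chr10:69352913-69353162, Ccnb2 on the minus strand at chr9:70421555-70421804 and Plk1 on the plus strand at chr7:122159185-122159434.
Cdk1: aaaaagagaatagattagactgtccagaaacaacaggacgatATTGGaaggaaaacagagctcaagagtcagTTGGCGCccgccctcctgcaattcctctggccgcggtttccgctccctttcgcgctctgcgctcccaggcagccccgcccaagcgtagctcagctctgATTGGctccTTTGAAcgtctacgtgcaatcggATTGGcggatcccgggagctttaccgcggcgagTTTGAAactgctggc
Ccnb2: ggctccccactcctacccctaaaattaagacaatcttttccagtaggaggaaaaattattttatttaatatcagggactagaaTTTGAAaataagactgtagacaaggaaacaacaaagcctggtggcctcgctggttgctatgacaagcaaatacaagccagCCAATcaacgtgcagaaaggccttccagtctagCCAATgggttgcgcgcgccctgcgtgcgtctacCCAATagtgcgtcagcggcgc
Plk1: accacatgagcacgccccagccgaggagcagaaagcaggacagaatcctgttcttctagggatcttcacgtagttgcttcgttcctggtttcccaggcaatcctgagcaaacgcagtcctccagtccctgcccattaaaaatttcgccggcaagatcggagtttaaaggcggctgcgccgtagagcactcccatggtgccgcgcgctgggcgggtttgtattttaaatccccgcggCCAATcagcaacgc
The stretch of Cdk1 holds CHR cores, CCAAT boxes and an E2F core, that of Ccnb2 a CHR core and several CCAAT boxes, and that of Plk1 a CCAAT box alone. The CHR core of Plk1 begins at position 31, past the start and outside the stretch shown. The marked CHR core of Ccnb2 begins at position -167, and another, also past the start and not shown, at position 5.

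Among the 20 G2 and mitosis genes with a window, the CHR core stood in 14 (70.0%), against 20.2% of all genes, and the CCAAT box in 16 (80.0%), against 41.1%. Of the S phase genes 1 of 12, Mcm2, held the CHR core. The core nearest the start began between position -98 and position 41, counting the start base as 1 and the base before it as -1. TTCCCGC was in none of the 20 windows and TTGGCGC in 4, those of Ccnb1, Cdk1, Ect2 and Mki67. In Ccnb1, Ect2 and Mcm7 a TTGGCGC overlapped a CCAAT box. The median log2 change with Stat3 deletion was -0.64 for the 14 mitotic genes with the CHR core and -0.64 for the 5 measured ones without it.

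The count of calls in this comparison rested on single arrays, while the sign did not. Without array B or without array C of Stat3Fl/Fl liver 0 of 39 genes passed, without array A or B of Stat3Δhc liver 1 passed, and without array C of Stat3Δhc liver 4 passed. Leaving out array B or C of Stat3Fl/FlMdr2-/- liver, which enter only through the pooled spread, gave 8 and 7, and leaving out array A of Stat3Fl/Fl liver gave 19. In each of these fits all 39 changes were negative, and the median lay between -0.73 and -0.46. Aurkb was the gene called most often, in 17 of 19 alternative fits.

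Markers of other cells were read beside these values. The mean of 14 hepatocyte markers was 12.19 to 12.49 in the Stat3Fl/Fl arrays and 12.57 to 12.60 in the Stat3Δhc arrays. Of these markers 11 were positive and 1 was called higher (7.14%, where 1.51% of all genes rose). Means of immune cell markers were lower with the deletion: T and NK cells 5.51 to 5.67 against 5.29 to 5.42 with all 6 tested markers negative, B cells 5.33 to 5.66 against 5.25 to 5.30 with all 8 negative, and macrophages 8.41 to 8.94 against 8.36 to 8.57 with 12 of 13 negative. Neutrophil and granulocyte precursor markers were at 5.48 to 5.85 against 5.33 to 5.50 (9 of 10 tested negative). Erythroid markers were at 5.98 to 6.11 against 5.92 to 5.99 (6 of 9 tested negative, with a median of -0.03). The means took in genes that failed the filter on low values, over 13 T and NK, 12 B cell, 16 granulocyte and 17 erythroid genes. In these 5 lists 0 markers were called. Other lists were nearer to an even split. Negative were 7 of 15 endothelial markers (median 0.0), 7 of 12 stellate cell markers (median -0.07) and 7 of 11 bile duct markers (median -0.10). Of the bile duct markers 1 fell (9.09%, where 1.07% of all genes did), and of the endothelial and stellate cell markers 0 were called. Under the 40th percentile in every array lay Cd3d, Cd247, Klrb1c, Klrd1, Gzma and Ncr1 among the T and NK markers, Rag1, Rag2 and Dntt among the B cell markers, Ctsg, Ms4a3, Mmp8, Retnlg and Chil3 among the granulocyte markers, and Rhag, Rhd, Tspo2 and Kel among the erythroid markers. Their part in the result was not tested.

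On the Mdr2 knockout, Stat3 deletion is compared between mice that share the loss of Mdr2. Again all 39 changes were negative, with a median of -0.45 and a range from -0.88 to -0.02, where 54.4% of all genes were negative with a median of -0.03. By the same test 3 of 39 genes (7.69%) fell and 0 rose, where 3.9% of all genes tested fell, 1.87% rose and 5.77% did either. All were of the 14 S phase genes (median -0.50), and 0 of the 24 measured G2 and mitosis genes passed (median -0.44), of which 17 had an unadjusted p under 0.05, against 28% of all genes tested. The arrays of the 2 genotypes did not overlap, with the deletion below, for 18 genes, 11 of S phase and 7 of mitosis, against 17.7% of all genes.

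Rrm2, needed to make deoxyribonucleotides, was 7.68, 8.17 and 7.98 in Stat3Fl/FlMdr2-/- liver and 6.99, 7.24 and 6.94 in Stat3Δhc Mdr2-/- liver. All deleted arrays were lower, and the gene fell 1.85-fold (-0.88, SE 0.16, adjusted p = 0.0085). Mcm7 was 7.92, 8.42 and 8.23 against 7.53, 7.68 and 7.08 and fell 1.69-fold (-0.76, SE 0.16, adjusted p = 0.0184). Mcm3 was 7.48, 7.91 and 7.70 against 7.01, 7.16 and 6.72 and fell 1.66-fold (-0.73, SE 0.14, adjusted p = 0.0137). The groups were separate for all 3, and Mcm3 was the only gene of the 39 to fall in both Stat3 comparisons.

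None of the other MCM subunits passed, and Mcm4, Mcm5 and Mcm6 were nearer the threshold than Mcm2. Mcm6 was 8.19, 8.82 and 9.03 against 8.19, 8.07 and 7.79, where array A of the floxed genotype was level with the highest deleted array to the second decimal, and its change was -0.66 (adjusted p = 0.0691). Mcm5 was 7.51, 7.89 and 7.89 against 6.95, 7.51 and 7.02, with array A of one genotype level with array B of the other (-0.61, adjusted p = 0.0523). Mcm4 had a change of -0.64 (adjusted p = 0.0518) and Mcm2 one of -0.35 (adjusted p = 0.115). The licensing factor genes were separate between the groups but not called, Cdc6 at -0.27 (adjusted p = 0.379) and Cdt1 at -0.24 (adjusted p = 0.177). E2f1 was the least changed of the 39, at 6.54, 6.56 and 6.51 against 6.17, 6.67 and 6.70 (-0.02, adjusted p = 0.913), with array A alone low.

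Among the later genes, Ccna2 at 8.29, 8.47 and 8.32 against 7.61, 8.02 and 7.57 (-0.62, adjusted p = 0.052), the spindle motor gene Kif11 (-0.75, adjusted p = 0.0549) and Plk1 at 7.47, 7.58 and 7.81 against 6.99, 7.17 and 7.31 (-0.46, adjusted p = 0.053) missed the threshold narrowly with no overlap. Aurkb was 7.52, 7.80 and 7.74 against 7.34, 7.45 and 7.30, separate but not called (-0.32, adjusted p = 0.144). Ccnb2, at 8.36, 8.33 and 8.37 against 7.80, 8.60 and 8.24, overlapped widely, with array B of the deleted genotype the highest of the 6 (-0.14, adjusted p = 0.613). Mki67 was 7.84, 8.78 and 8.58 against 7.72, 8.21 and 7.72 and overlapped through its low floxed array A (-0.52, adjusted p = 0.178). Ccnd1 was 9.81, 9.88 and 9.96 against 9.73, 9.83 and 9.46 and was not called (-0.21, adjusted p = 0.226).

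The 3 calls on the knockout varied with the arrays used. Leaving out 1 array gave 1 called gene without array B of Stat3Fl/FlMdr2-/- liver, 9 without its array A, 7 without array B of Stat3Δhc Mdr2-/- liver, 6 without array B of Stat3Δhc liver and 5 without array A of Stat3Fl/Fl liver. With the Xist and Y-linked pattern as a covariate, which sets array A of the deleted genotype against the 3 floxed arrays of its pattern, 0 passed and the median was -0.55. Of 12 stellate cell markers 5 (41.7%) fell in this comparison, as did 1 of 15 endothelial markers (6.67%), where 3.9% of all genes fell. All 15 endothelial markers were negative, with a mean of 8.48 to 8.61 against 8.16 to 8.30. Of the macrophage markers 2 of 13 fell (15.4%), of the B cell markers 2 of 8 (25.0%) and of the bile duct markers 2 of 11 (18.2%). Other lists leaned the other way. Positive were 4 of 6 T and NK cell markers (median 0.15), 8 of 14 hepatocyte markers and 14 of 17 skeletal muscle markers. Of the hepatocyte markers 1 was called higher (7.14%, where 1.87% of all genes rose). Their part in the result was not tested.

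Whether the Stat3 effect differed between the 2 backgrounds was tested as the difference of the 2 changes. By limma 0 of the 39 genes passed, where 0.0715% of all genes tested did (0.0572% with a lower value) and 16.9% had an unadjusted p under 0.05. Among the 39 it was 1, Aurkb (difference 0.45, 95% confidence interval 0.05 to 0.86, adjusted p = 0.268). The difference was positive for 31 genes, a less negative value on the knockout, with a median of 0.20. In G2 and mitosis it was positive for 23 of 24 genes (median 0.24) and in S phase for 7 of 14 (median 0.06). Of all genes tested 55.7% had a negative difference, with a median of -0.04. The intervals were wide: that of Mki67 ran from -0.50 to 0.95, that of Cdc6 from -0.05 to 1.20 and that of Rrm2 from -0.84 to 0.12. Leaving out 1 array moved the median of the 39 between 0.04 and 0.31, and the number of negative genes between 2 and 17. With the Xist and Y-linked pattern as a covariate 12 were negative. On the knockout the floxed arrays all had the Xist pattern, and of the deleted arrays only array A did. The median standard error of the difference was 0.24 for these genes.

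Loss of Mdr2 in floxed liver, the disease model against its control, gave calls in both directions. The median change was -0.23 (-0.27 in S phase and -0.22 in mitosis) with 38 of 39 negative, against 50.8% of all genes. It was -0.11 with 29 negative without array A of Stat3Fl/FlMdr2-/- liver, -0.16 with 34 negative without array C of Stat3Fl/Fl liver, and -0.34 without array A of Stat3Fl/Fl liver. By limma 3 of 39 genes fell (7.69%) and 1 rose (2.56%), where 5.65% of all genes fell and 7.12% rose, so the share called was near or under that of all genes. At an unadjusted p under 0.05 there were 7 of 39, where 25.9% of all genes tested passed, and 13 genes were lower without overlap, where 15.1% of all genes were. Mcm6 fell 1.82-fold, from 9.36, 9.50 and 9.77 to 8.19, 8.82 and 9.03 (-0.87, SE 0.2, adjusted p = 0.014). Ccne2 fell 1.51-fold, from 6.66, 6.34 and 7.05 to 5.97, 6.30 and 6.0 (-0.59, adjusted p = 0.0398), and Nusap1 1.47-fold, from 6.2, 6.63 and 6.75 to 5.81, 6.2 and 5.89 (-0.56, adjusted p = 0.0496). The groups of these 3 genes were separate, those of Ccne2 and Nusap1 only barely. Ccnd1 rose 1.30-fold, from 9.34, 9.60 and 9.58 to 9.81, 9.88 and 9.96, with no overlap (0.38, SE 0.11, adjusted p = 0.0443).

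Loss of Mdr2 in Stat3Δhc liver left the median change of the 39 genes at 0, with 20 negative and 19 positive. This balance rested on single arrays: 34 were negative (median -0.16) without array B of Stat3Δhc liver and 31 (median -0.14) without array B of Stat3Δhc Mdr2-/- liver, while 14 were negative without array A or array C of Stat3Δhc liver (medians 0.06 and 0.08). Here 3 fell (7.69%) and 1 rose (2.56%), where 10.5% of all genes fell and 6.9% rose. At an unadjusted p under 0.05 there were 9 of 39, where 34.7% of all genes tested passed. The genes that fell were all of S phase. Rrm2 fell 1.74-fold, from 7.88, 7.62 and 8.07 to 6.99, 7.24 and 6.94 (-0.80, SE 0.16, adjusted p = 0.00474). Mcm6 fell 1.59-fold, from 8.83, 8.37 and 8.87 to 8.19, 8.07 and 7.79 (-0.67, adjusted p = 0.0391), and Ccne2 1.57-fold, from 6.27, 6.16 and 6.53 to 5.85, 5.74 and 5.42 (-0.65, adjusted p = 0.0234). All were without overlap, as were 4 members in all, where 22.3% of all genes tested were lower without overlap, and Mcm6 and Ccne2 fell in both Mdr2 comparisons. The median was -0.21 over the S phase genes and 0.02 over the genes of mitosis, where 0 of 24 passed by limma, 1 had an unadjusted p under 0.05 and Mki67 was at -0.08 (95% confidence interval -0.60 to 0.43).

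Ccnd1 had the opposite sign to the S phase genes that were called. From 9.01, 8.88 and 9.14 in Stat3Δhc liver it rose to 9.73, 9.83 and 9.46 with Mdr2 loss, a 1.58-fold rise with no overlap (0.66, SE 0.11, adjusted p = 0.0021). That call held in 19 of 19 alternative fits, with log2 changes from 0.58 to 0.78. Without array A of Stat3Δhc Mdr2-/- liver, which leaves only arrays of the Y-linked pattern on both sides, the change was 0.63 (adjusted p = 0.00848). The rise in floxed liver was less stable, called in 8 of 19 alternative fits with adjusted p of up to 0.159 when 1 array was left out, and 0.641 with the pattern as a covariate. In the covariate fit the change was 0.29 with an SE of 0.21, and the effect of the pattern came from the Stat3Δhc Mdr2-/- arrays alone. Over the 4 genotypes Ccnd1 was ordered Stat3Δhc (9.01 ± 0.13), Stat3Fl/Fl (9.51 ± 0.14), Stat3Δhc Mdr2-/- (9.67 ± 0.19) and Stat3Fl/FlMdr2-/- (9.88 ± 0.08; SD, n = 3 each), and the ranges of the middle pair overlapped, as did those of the last pair.

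**Figure D4:**
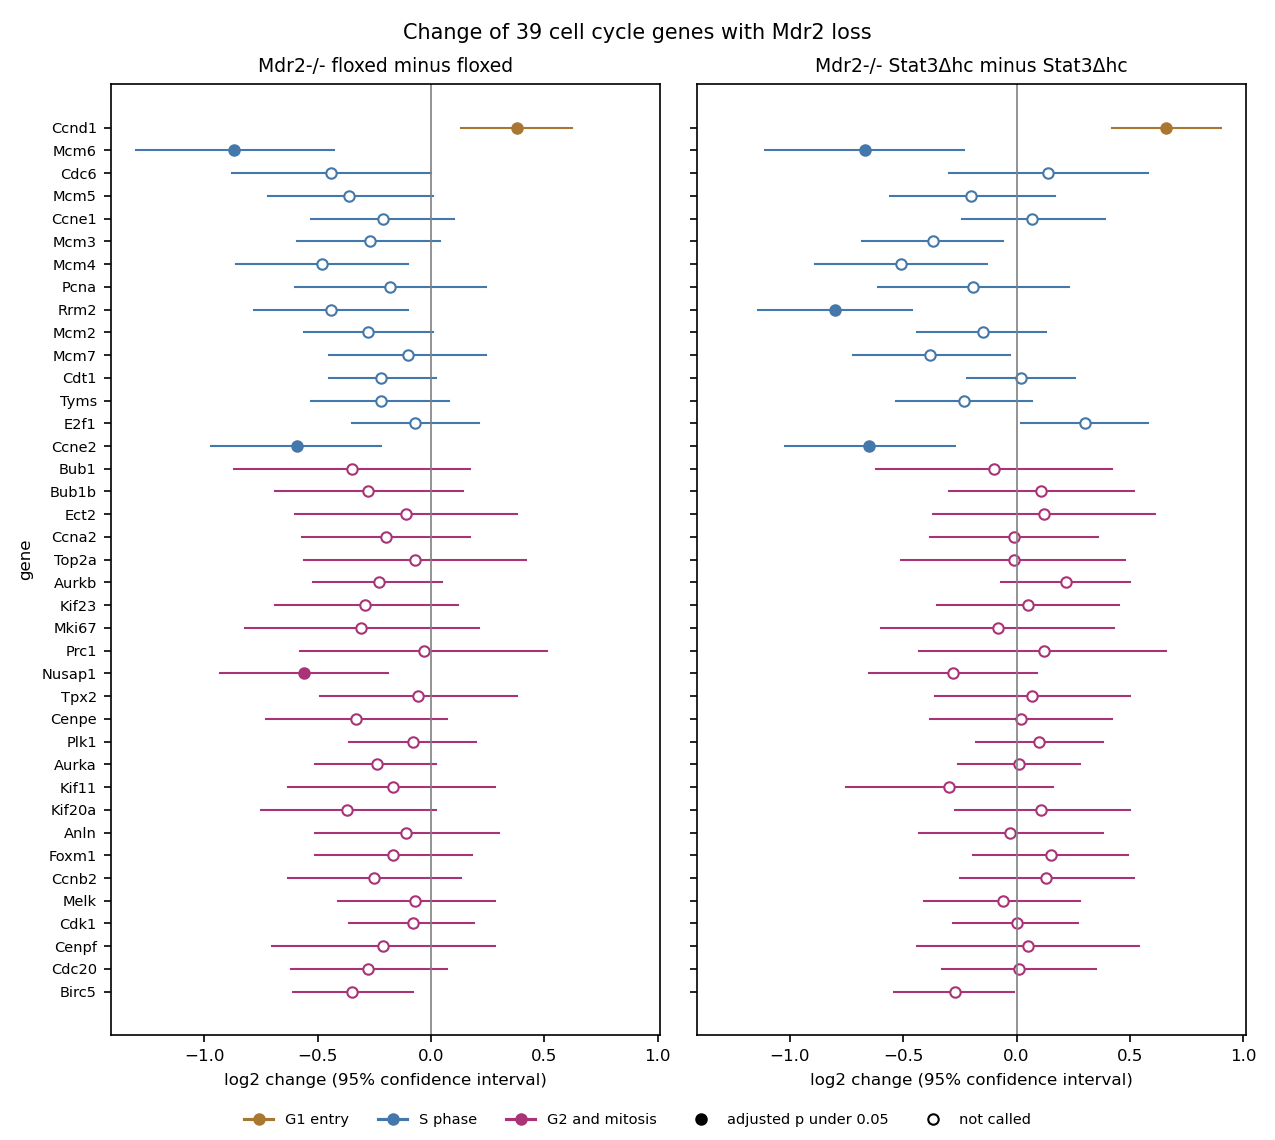
Log2 change of each of the 39 genes with Mdr2 loss, in floxed liver (left) and in Stat3Δhc liver (right), with symbols, lines and colours as in the plot of changes with Stat3 deletion. Ccnd1 at the top lies above 0 in both panels, at 0.38 and 0.66, and Mcm6 and Ccne2 are filled below 0 in both, while the mitosis genes at the right lie on either side of 0.

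The Mdr2 comparisons carry differences that lie alongside the genotype. Every Stat3Fl/Fl array had the Y-linked pattern and every Stat3Fl/FlMdr2-/- array the Xist pattern, so in floxed liver sex and Mdr2 loss cannot be told apart. With the pattern as a covariate 0 of the 39 genes passed (median -0.13). That fit takes the effect of the pattern only from array A against arrays B and C of Stat3Δhc Mdr2-/- liver, the only genotype with both patterns. It carries the deviation of that array over to floxed liver and cannot separate sex from Mdr2 loss there. All 17 skeletal muscle markers fell in both Mdr2 comparisons (medians -3.23 and -3.08), and in Stat3Δhc liver 8 of 15 endothelial markers (53.3%) and 5 of 12 stellate cell markers (41.7%) fell. There 2 stellate cell markers (16.7%), 3 of 6 T and NK cell markers (50%) and 2 of 13 macrophage markers (15.4%) rose. Of all genes tested 10.5% fell and 6.9% rose in Stat3Δhc liver. Their part in the result was not tested. Leaving out single arrays gave 0 to 5 called genes in floxed liver, with 0 without array C of Stat3Fl/Fl liver, 1 without array A of Stat3Δhc or array A or C of Stat3Fl/FlMdr2-/- liver, and 2 without array A or B of Stat3Fl/Fl or array A of Stat3Δhc Mdr2-/- liver. In Stat3Δhc liver it gave 2 without array A or C of Stat3Δhc or array C of Stat3Δhc Mdr2-/- liver.

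The mean of the S phase genes minus that of the mitosis genes gave the balance of the 2 groups in an array. It was 0.48, 0.24 and 0.42 in Stat3Fl/Fl, 0.35, 0.56 and 0.41 in Stat3Δhc, 0.31, 0.25 and 0.22 in Stat3Fl/FlMdr2-/- and 0.23, 0.10 and 0.21 in Stat3Δhc Mdr2-/- liver. The Stat3Δhc arrays all lay above the Stat3Δhc Mdr2-/- arrays, while the floxed genotypes overlapped. Its absolute size depends on the probes and has no meaning of its own.

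Other genes of the cycle were read from lists that do not share members with the 40. Of 31 tested genes of replication, 3 fell with Stat3 deletion without the knockout (9.68%, median -0.40) and 5 on it (16.1%, median -0.37), where 1.07% and 3.9% of all genes tested fell, and 0 rose in either. Uhrf1, which keeps DNA methylation through replication, fell in both (-0.88, adjusted p = 0.0097, and -0.67, adjusted p = 0.023), as did the clamp loader gene Rfc3 (-0.65, adjusted p = 0.043, and -0.59, adjusted p = 0.0425). The histone chaperone gene Asf1b fell without the knockout (-0.86, adjusted p = 0.0204), and the primase and polymerase alpha genes Prim1 (-0.97, adjusted p = 0.0244) and Pola1 (-0.73, adjusted p = 0.0474) fell on it.

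Of 53 other genes of mitosis, 6 fell without the knockout (11.3%, median -0.52) and 8 on it (15.1%, median -0.38), against the same 1.07% and 3.9% of all genes, and 0 rose. The largest without it were the kinesin gene Kif22 (-0.77, adjusted p = 0.00959), Ckap2l (-0.75), the condensin gene Ncaph (-0.64) and Cdca3 (-0.63). On the knockout they were the condensin genes Ncapg2 (-1.03, adjusted p = 0.0208) and Ncapg (-0.79) and the checkpoint genes Trip13 (-0.71) and Zwilch (-0.70). Condensins compact chromosomes for division.

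Among 39 tested CDK inhibitors, RB and E2F family members and other cyclins and CDKs, 2 fell without the knockout (5.13%, against 1.07% of all genes) and 3 on it (7.69%, against 3.9%). E2f8, a repressor of the E2F family that is itself made in S phase, had the largest change of those called in both. It was 6.88, 7.03 and 7.21 in Stat3Fl/Fl liver and 5.91, 5.80 and 6.39 in Stat3Δhc liver, a 2.01-fold fall (-1.01, SE 0.19, adjusted p = 0.0184). On the knockout it was 7.0, 7.77 and 7.30 against 6.07, 6.28 and 5.88, a 2.43-fold fall (-1.28, SE 0.19, adjusted p = 0.00379), and the groups were separate on both backgrounds. The phosphatase gene Cdkn3 fell without the knockout (-0.61, adjusted p = 0.0349), and the RB relative Rbl1 (-0.61, adjusted p = 0.045) and Cdk4, the kinase partner of cyclin D (-0.34, adjusted p = 0.0486), fell on it.

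With Mdr2 loss 4 of the same 39 genes rose (10.3%) and 5 fell (12.8%) in floxed liver, where 7.12% of all genes rose and 5.65% fell. In Stat3Δhc liver 3 rose and 3 fell (7.69% each), near or under the 6.9% and 10.5% of all genes. Cdkn1c, for the CDK inhibitor p57, fell 2.03-fold in floxed liver, from 8.55, 9.17 and 9.18 to 8.04, 7.91 and 7.88 (-1.02, adjusted p = 0.000804), and 1.62-fold in Stat3Δhc liver, from 8.48, 8.35 and 8.63 to 7.67, 7.84 and 7.87 (-0.69, adjusted p = 0.00693). The stress gene Gadd45b rose 1.76-fold, from 6.29, 6.75 and 6.65 to 7.39, 7.01 and 7.73 (0.82, adjusted p = 0.0147), and 2.26-fold, from 6.79, 6.92 and 6.52 to 8.18, 7.97 and 7.6 (1.17, adjusted p = 0.00166). Neither gene overlapped between the groups in either liver. Ccng2, for a cyclin of resting cells, rose in both (0.69, adjusted p = 0.00257, and 0.64, adjusted p = 0.00346), and the antiproliferative gene Btg2 rose in Stat3Δhc liver (0.64, adjusted p = 0.00727). Gadd45a fell in floxed liver (-0.71, adjusted p = 0.0377), with overlap between its groups.

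In the replication list 6 of 31 genes fell with Mdr2 loss in floxed liver (19.4%) and 4 in Stat3Δhc liver (12.9%), against the 5.65% and 10.5% of all genes given above, and 0 rose. Orc6, of the origin recognition complex, fell in both (-0.67, adjusted p = 0.0154, and -0.69, adjusted p = 0.0117), as did Rfc3 (-0.65 and -0.58). In the mitosis list 4 of 53 fell in floxed liver (7.55%), and 2 fell (3.77%) and 1 rose (1.89%) in Stat3Δhc liver. Cks1b, the CDK subunit, fell in both (-0.55, adjusted p = 0.00621, and -0.46, adjusted p = 0.0145). Pttg1, for securin, fell in Stat3Δhc liver from 7.96, 7.82 and 7.86 to 6.69, 7.21 and 7.19 with no overlap (-0.85, adjusted p = 0.00105), and Cit, for citron kinase of cytokinesis, rose there (0.46, adjusted p = 0.0103). In the difference of the Stat3 effects 0 genes of the 3 lists were called, with 1 of 31, 3 of 53 and 3 of 39 at an unadjusted p under 0.05.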

How the data were processed

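Whole liver RNA was hybridised to 12 Affymetrix arrays. The deposited values are log2 signals that the authors summarised per transcript cluster with RMA, per the submitters' processing notes, which name no version. RMA sets all arrays to the same distribution, so changes are relative to the other genes of an array, and the array medians lay between 6.01 and 6.14. Of 35556 clusters 21789 name 1 gene, and the rest were not used. Samples were grouped by title. Genes above the 40th percentile of the array in at least 3 arrays were tested with limma 3.58.1 in R 4.3.3 (lmFit and eBayes, 1 mean per genotype, 8 residual degrees of freedom), with Benjamini-Hochberg adjustment over 13977 genes and a threshold of 0.05. The median standard error was 0.17 for the 39 genes and 0.11 for all. In simulated data 50 genes were changed at each fold. Of these, 82.0% changed 1.5-fold and 96.0% changed 2-fold were recovered for Stat3 deletion without the knockout, and 66.0% and 86.0% on it. Both runs used the same pooled spread and the same design, so the gap between them comes from the random draw and shows no difference in sensitivity. The changed genes were drawn from all genes tested, with a median SD within a genotype of 0.14, against 0.25 for the 39 genes. These rates therefore do not apply to the 39 genes. The members and lists were chosen with earlier results of these data known. All members may be named, per-array values were given for those the results turned on, and up to 4 genes that passed were named from each other list and comparison. The alternatives were cyclic loess, averaging the clusters of each gene, testing without the filter, array weights, the compared groups only, a replicate block, the Xist and Y-linked pattern as a covariate, and each array left out. Motifs were searched in RefSeq windows (GRCm38.p6), which 32 of the 40 members matched by symbol. Figures were drawn with matplotlib 3.10.9.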

Additional observations from a re-analysis of the deposited data

How the results depend on the processing

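For Stat3 deletion without the knockout all 39 changes were negative in every setting run, and on the knockout 34 to 39 were, while the counts of calls moved. With Stat3 deletion without the knockout, where 14 of 39 genes fell, 6 were called with no filter, 35 with array weights (which gave array A of Stat3Δhc liver a weight of 9.007) and 4 with the replicate letter as a block, and leaving out 1 array gave 0 to 19. On the knockout, where 3 fell, array weights gave 6, the Xist and Y-linked pattern as a covariate 0, and leaving out 1 array 1 to 9. For Mdr2 loss in floxed liver, with 4 calls, no filter gave 1, the replicate block 1, the covariate 0 and leaving out 1 array 0 to 5. In Stat3Δhc liver, with 4 calls, array weights gave 9 and leaving out 1 array 2 to 5. The difference of the Stat3 effects had 0 calls among the 39 in every setting run. The cause of these moves was not tested. Whether the replicate letters pair the arrays cannot be told from the correlations of deviations from the genotype mean. These ran from -0.409 to 0.366 for the same letter and from -0.373 to 0.482 for different letters. Between Stat3Δhc and Stat3Fl/Fl liver the same-letter values were 0.268, 0.073 and 0.366, and those of different letters ran from -0.349 to 0.175. Over all genes, Stat3 deletion without the knockout had 361 calls, against 2955 with array weights, 237 with the block and 69 to 753 on leaving out 1 array, so the share of all genes called moved too. On the knockout there were 806, against 2298 with array weights, 230 with the compared groups only, 473 with the block and 37 with the covariate. The difference had 10 calls against 567 with weights, Mdr2 loss in floxed liver 1785 against 102 with the covariate, and Mdr2 loss in Stat3Δhc liver 2431 against 5830 with weights. Precision was limited by 3 arrays a genotype, with a median standard error of 0.17 for these genes.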
